A study of Rattus norvegicus with 12 samples.

Results

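The tachykinin genes and their receptor genes were followed in the lumbar dorsal horn of oxytocin-hM3Dq rats: Tac1 and Tac3, which encode the peptides, and Tacr1, Tacr2 and Tacr3, which encode the receptors. These 5 genes were taken by symbol from the 32623 genes of the deposited count tables, and 4 of them, all but Tacr2, had enough counts to be tested. RNA was sequenced from laser-microdissected dorsal horn of lumbar segment 5, cut into laminae I–II (superficial) and laminae III–VI (deep), in 3 libraries for each of 4 groups: I–II Saline, I–II CNO, III–VI Saline and III–VI CNO. All rats, the Saline controls included, were OT-hM3Dq-mCherry transgenic rats aged 8 weeks, in which the oxytocin promoter drives an excitatory designer receptor fused to a red fluorescent protein. Clozapine-N-oxide (CNO, the designer drug, 1 mg/kg) or Saline was given under the skin and the tissue was taken 120 min later, so that the comparison of CNO with Saline addresses the effect of activating the rats' own oxytocin neurons, whose cell bodies lie in the hypothalamus and not in the dissected tissue. No group without the transgene was sequenced, so in these libraries an effect of CNO itself cannot be told apart from an effect of the designer receptor. In other assays the paper did give CNO to wild-type rats. It reports unaltered mechanical and heat sensitivity there, and little change in the brainstem and dorsal horn apart from more tryptophan hydroxylase neurons in parts of the dorsal raphe nucleus.

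Tachykinins are neuropeptides cut from larger precursors. Tac1 gives substance P and neurokinin A, Tac3 (named Tac2 in mouse) gives neurokinin B, and the receptors encoded by Tacr1, Tacr2 and Tacr3 prefer substance P, neurokinin A and neurokinin B, in that order. All of these receptors are coupled to Gq proteins and excite the cells that carry them. In the dorsal horn, substance P is released by nociceptive primary afferents, whose cell bodies and most of whose mRNA are in the dorsal root ganglia, and also by local excitatory interneurons. Neurokinin B is made by excitatory interneurons of the inner superficial laminae. Tacr1 marks many projection neurons of lamina I that send pain signals to the brain, and Tacr3 is found on excitatory interneurons. The libraries measured mRNA only, neither peptide nor release.

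Library totals ran from 5245952 to 7889953 counts, and every I–II CNO library (6095833 to 6576869) was larger than every I–II Saline library (5245952 to 5694619). Levels are given in CPM, that is, counts scaled to a fixed library size, here after correction by the trimmed mean of M-values (TMM), as mean ± SD of the libraries. All 8 superficial-lamina marker genes were higher in laminae I–II and all 6 deep-lamina marker genes were lower there. Of all genes tested, 29.1% were higher and 29.3% lower. The marker lists were chosen with earlier results of these data known, so these counts describe the layers and do not test the labels. Marker genes of other tissue also differed between the superficial libraries. The summed level of 7 Schwann-cell genes was 576 to 906 CPM in the I–II Saline libraries and 331 to 434 CPM in the I–II CNO libraries. It was 417 to 455 CPM in III–VI Saline and 399 to 461 CPM in III–VI CNO. Of the 5 testable genes, with a median log2 fold change of -2.38, edgeR called 4 lower in laminae I–II, where 0.142% of all genes were called. Mag was not called, and unlike the other 4 it was lower in laminae I–II than in III–VI. DESeq2 called 1 of the 5. The summed level of 7 fibroblast and meningeal genes was 103 and 125 CPM in I–II Saline 1 and 2, 447 CPM in I–II Saline 3 and 96.4 to 103 CPM in the I–II CNO libraries. I–II Saline 3 therefore stood apart from the other superficial libraries, and the superficial CNO fold changes of Tac1, Tac3, Tacr1, Tacr3 and several of the other genes are also given without it. Of the primary sensory neuron genes, the nociceptor genes Scn10a, Scn11a, Calca, Calcb, P2rx3 and Mrgprd had too few counts to be tested in laminae I–II.

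Each gene was tested with edgeR's quasi-likelihood test, with Benjamini-Hochberg adjustment over all genes of the fit and a threshold of adjusted p = 0.05. Between the layers, 3 of the 4 testable tachykinin genes, Tac1, Tac3 and Tacr3, were higher in laminae I–II with no overlap between the layers, none was lower, and Tacr1 was not called. Of 13745 genes tested, 58.4% were called between the layers, 29.1% as higher and 29.3% as lower in laminae I–II, so that a layer difference as such was common, and the sizes of the differences are therefore described below. No overlap with the superficial libraries higher was found for 16.6% of the genes. After CNO, 0 of 4 were called in either layer, where 0.142% of 13344 genes were called in laminae I–II and 0.137% of 13117 in laminae III–VI. In bulk tissue, fewer cells of a type and less RNA per cell cannot be told apart.

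**Figure D1:**
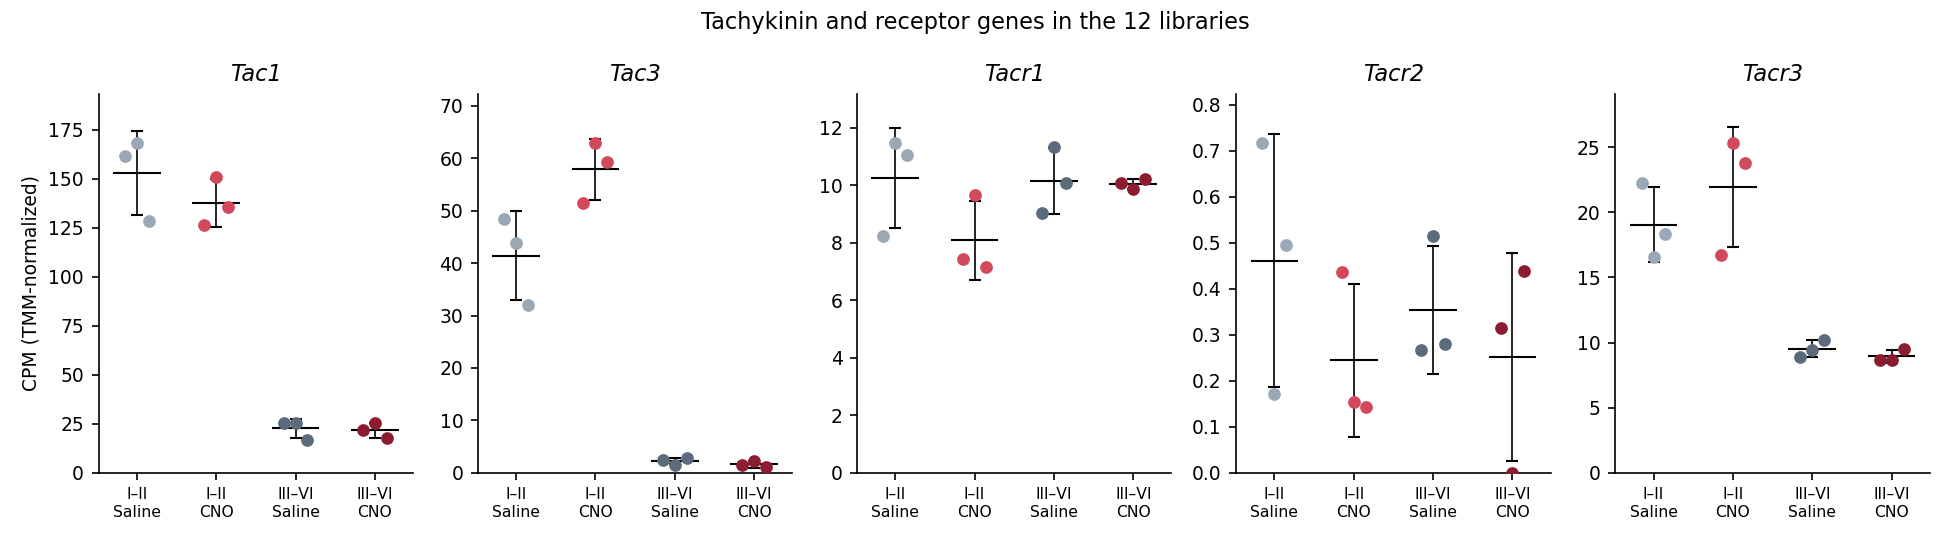
TMM-scaled level (CPM, linear axis from 0, a separate scale for each gene) of the 5 genes in the 12 libraries, by layer and treatment. Points are libraries, the wide bar is the group mean and the error bar 1 SD (n = 3). Tac1, Tac3 and Tacr3 were higher in every laminae I–II library than in any laminae III–VI library, Tacr1 was at 7.17 to 11.5 CPM throughout, and Tacr2 never exceeded 4 counts.

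Tac1, the substance P precursor gene (ENSRNOG00000007374, Rnor_6.0 chromosome 4, 33638709 to 33646819, plus strand), was read 903, 983 and 779 times in the I–II Saline libraries and 870, 983 and 946 times in the I–II CNO libraries. In the III–VI Saline libraries it was read 192, 148 and 121 times, and in the III–VI CNO libraries 138, 153 and 121 times. The superficial and deep libraries did not overlap: the lowest of the 6 superficial libraries was at 126.6 CPM, the median at 143 CPM and the highest at 168 CPM, against 16.9, 23.5 and 25.6 CPM in the 6 deep ones. Tac1 was 6.58-fold higher in laminae I–II (log2 difference 2.72, SE 0.09, edgeR adjusted p = 1.94e-16), and 105 of the 13745 genes had a larger difference in this direction. By group, the order was I–II Saline (152.8 ± 21.4 CPM), I–II CNO (137.7 ± 12.3), III–VI Saline (22.6 ± 4.93) and III–VI CNO (21.6 ± 3.95), in which the groups of one layer did not differ beyond their spread.

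Tac3, the neurokinin B precursor gene (ENSRNOG00000004229, chromosome 7, 71023976 to 71030582, plus strand), showed the steepest layer difference of the 4 tested genes. Its counts were 270, 256 and 194 in I–II Saline and 354, 410 and 414 in I–II CNO. They were 18, 9 and 20 in III–VI Saline and 10, 14 and 7 in III–VI CNO. Deep laminae thus held Tac3 at few counts per library, and the lowest superficial library (32.0 CPM) was far above the highest deep library (2.80 CPM). The layer means were 49.7 ± 11.1 CPM superficially and 1.94 ± 0.668 CPM deep (n = 6 libraries each), a 25.2-fold difference (log2 difference 4.65, SE 0.15, edgeR adjusted p = 7.58e-17). Only 8 of the 13745 genes had a larger log2 difference in favour of laminae I–II. The order of the groups was I–II CNO (57.9 ± 5.83 CPM), I–II Saline (41.4 ± 8.46), III–VI Saline (2.24 ± 0.639) and III–VI CNO (1.64 ± 0.661), and the deep groups did not differ beyond their spread.

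Tacr1, the gene of the substance P receptor (ENSRNOG00000005853, chromosome 4, 113247795 to 113414504, plus strand), was read 46, 67 and 67 times in I–II Saline and 51, 63 and 50 times in I–II CNO. It was read 68, 66 and 72 times in III–VI Saline and 64, 59 and 70 times in III–VI CNO. The layers overlapped, with 9.17 ± 1.84 CPM in the 6 superficial libraries (lowest 7.17, median 8.95, highest 11.5) and 10.1 ± 0.735 CPM in the 6 deep ones (lowest 9.04, median 10.1, highest 11.3). The log2 difference was -0.14 (SE 0.12, edgeR adjusted p = 0.316). Its sign turned when libraries were scaled by their totals (0.03) or when only the Saline groups were compared within the 12-library fit (0.03). With 46 to 72 counts per library, a small layer difference in Tacr1 was not detectable at this depth. I–II Saline (10.3 ± 1.75 CPM), III–VI Saline (10.1 ± 1.14), III–VI CNO (10.04 ± 0.183) and I–II CNO (8.09 ± 1.38) followed each other. The libraries of neighbouring groups overlapped except in the last step, where III–VI CNO (9.85 to 10.2 CPM) lay above I–II CNO (7.17 to 9.67 CPM). The share of all genes with such a step was not counted, and none of the 21 alternatives to the layer test called Tacr1.

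Tacr3, the gene of the neurokinin B receptor (ENSRNOG00000009372, chromosome 2, 240021152 to 240118971, plus strand), lay between these patterns. Its counts were 124, 97 and 111 in I–II Saline and 115, 165 and 166 in I–II CNO. They were 67, 55 and 73 in III–VI Saline and 55, 52 and 65 in III–VI CNO. No deep library (highest 10.2 CPM) reached the lowest superficial one (16.6 CPM). Tacr3 averaged 20.5 ± 3.77 CPM over the superficial libraries and 9.23 ± 0.601 CPM over the deep ones (n = 6 each), 2.21-fold higher in the superficial layer (log2 difference 1.14, SE 0.11, edgeR adjusted p = 1.08e-08), and 678 genes had a larger difference. Within a layer, CNO and Saline groups of Tacr3 did not differ beyond their spread (I–II CNO 22.0 ± 4.58, I–II Saline 19.0 ± 2.88, III–VI Saline 9.52 ± 0.655, III–VI CNO 8.94 ± 0.476 CPM).

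Tacr2, the gene of the neurokinin A receptor (ENSRNOG00000050658, chromosome 20, 31892515 to 31905153, plus strand), was close to the limit of detection. It was read 4, 1 and 3 times in I–II Saline, 3, 1 and 1 times in I–II CNO, 2, 3 and 2 times in III–VI Saline and 2, 0 and 3 times in III–VI CNO. Pooled over 6 libraries, 13 counts in laminae I–II gave 0.364 CPM of the raw totals (95% exact Clopper-Pearson interval 0.194 to 0.623) and 12 counts in laminae III–VI gave 0.284 (0.147 to 0.495), where the intervals cover counting error only. The intervals overlapped, and neither a layer nor a CNO difference in Tacr2 was detectable at this depth. Tac4, the remaining tachykinin precursor gene of the rat, was read 3, 0 and 3 times in I–II Saline, 0 times in all 3 I–II CNO libraries, 0, 2 and 0 times in III–VI Saline and 1, 1 and 3 times in III–VI CNO.

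**Figure D2:**
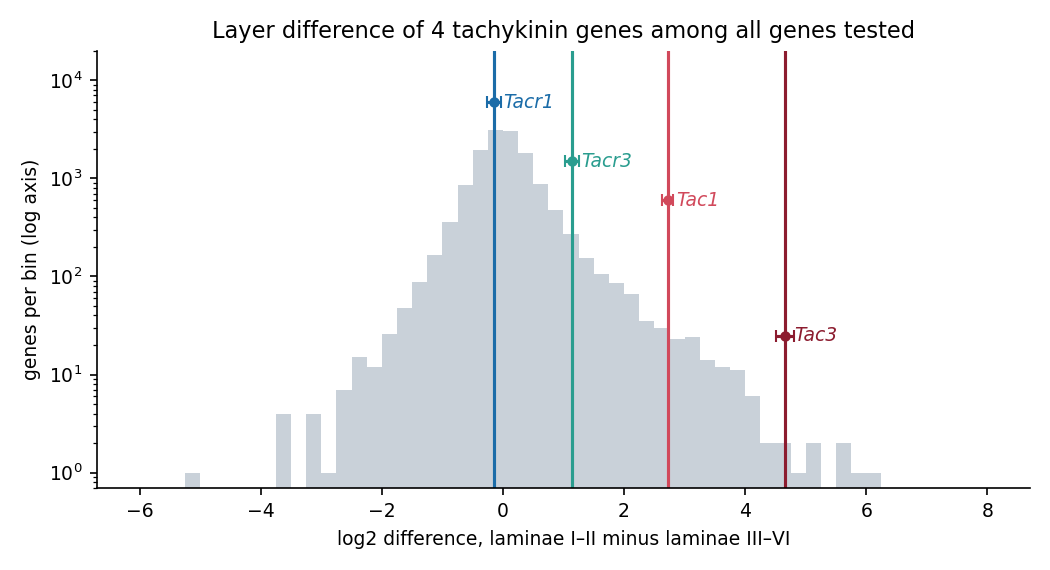
Distribution of the log2 difference between laminae I–II and III–VI over the 13745 genes tested (grey bars, genes per bin on a log axis), with Tac1, Tac3, Tacr1 and Tacr3 marked by lines and their standard errors by horizontal bars. Tac3 (4.65) and Tac1 (2.72) lay in the right tail, Tacr3 (1.14) on its shoulder and Tacr1 (-0.14) in the centre; the height of the labels has no meaning.

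The calls of Tac1, Tac3 and Tacr3 between the layers did not depend on the scaling. With library totals in place of TMM factors, the median of all genes moved by 0.18 on the log2 scale, and 6271 genes were called higher and 2397 lower in laminae I–II, against 4003 and 4022 with TMM. Across the 21 alternatives to the layer test, the log2 difference ran from 2.63 to 2.90 for Tac1, from 4.16 to 5.15 for Tac3 and from 1.00 to 1.32 for Tacr3, with all 3 genes past the threshold in each of them.

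Ratios of 2 genes within one library do not depend on library size or scaling. Since gene length was not corrected for, only the difference of a ratio between layers is compared. The log2 ratio of Tac1 to Tac3 counts was 1.57 ± 0.365 in laminae I–II (1.19 to 2.00) and 3.51 ± 0.534 in laminae III–VI (2.57 to 4.02), so that Tac3 formed a larger part of the tachykinin precursor counts superficially. The ratio of ligand to receptor counts also differed by layer. For Tac1 to Tacr1 it was 3.99 ± 0.275 (3.53 to 4.28) in laminae I–II and 1.11 ± 0.301 (0.74 to 1.49) in laminae III–VI, and for Tac3 to Tacr3 it was 1.26 ± 0.276 (0.80 to 1.62) and -2.27 ± 0.518 (-3.13 to -1.84). The layers did not overlap in any of the 3 ratios, and each difference gave p = 0.00216 in the two-sided exact permutation test over 6 against 6 libraries, the smallest p it can give (Benjamini-Hochberg adjusted p = 0.00216 over the 3 ratios). That test treats the libraries as independent, although same-numbered libraries of both layers deviated together. The larger p of the test over same-numbered pairs is given in the last section. In linear terms the layers differed 3.83-fold for Tac1 to Tac3, 7.37-fold for Tac1 to Tacr1 and 11.6-fold for Tac3 to Tacr3. The 3 ratios use the same counts as the layer tests of the single genes. They restate those differences and are not separate support for them.

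**Figure D3:**
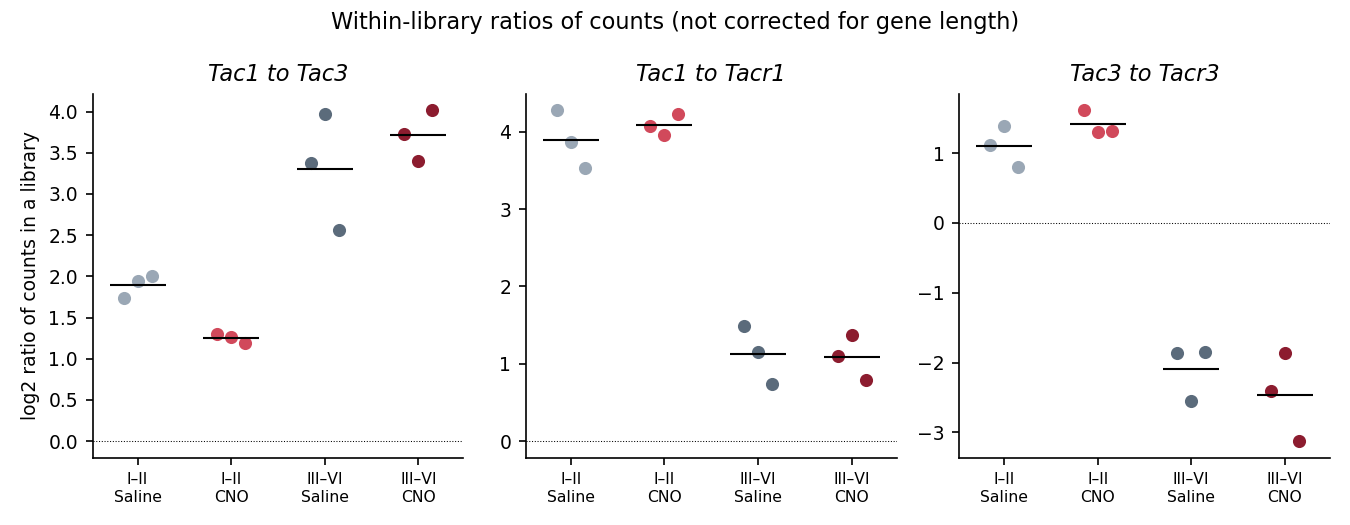
Log2 ratio of counts within each library for Tac1 to Tac3, Tac1 to Tacr1 and Tac3 to Tacr3, by layer and treatment (points are libraries, bars are means of 3, the dotted line marks equal counts, each panel has its own scale). Every laminae I–II library lay below every laminae III–VI library for Tac1 to Tac3 and above it for both ligand-to-receptor ratios, and the I–II CNO libraries (1.19 to 1.30) lay below the I–II Saline libraries (1.74 to 2.00) for Tac1 to Tac3.

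Of the 4 tested genes, Tac3 showed the largest difference between CNO and Saline in laminae I–II, without passing the threshold. Tac3 stood at 48.4, 43.8 and 32.0 CPM in I–II Saline and at 51.5, 62.9 and 59.3 CPM in I–II CNO, so that the groups did not overlap. Of the 13344 genes tested, 11.8% had groups that did not overlap, 6.72% with the CNO libraries higher. The log2 fold change of Tac3 was 0.48 (SE 0.12, a 1.39-fold difference), with unadjusted p = 0.000849 and edgeR adjusted p = 0.236, and 173 genes had a larger log2 fold change. Leaving out I–II Saline 3, the library with the most fibroblast and meningeal RNA and the least Tac3 of the superficial ones, gave 0.32 (adjusted p = 0.534), and leaving out I–II CNO 2 gave 0.41 (adjusted p = 0.960). With no filter on low counts the gene passed the threshold (0.49, adjusted p = 0.000239), and 131 genes rather than 19 did so. Tac3 also passed with replicate number as a block. The part of the Schwann-cell and meningeal RNA in this difference was not tested.

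The other tested genes overlapped between CNO and Saline in laminae I–II. Tac1 had 162, 168 and 128 CPM in Saline and 126.6, 151 and 136 CPM in CNO libraries (log2 fold change -0.16, SE 0.09, edgeR adjusted p = 0.783). Tacr1 had 8.24, 11.5 and 11.05 CPM in Saline and 7.42, 9.67 and 7.17 CPM in CNO (-0.36, SE 0.20, adjusted p = 0.776). For Tacr3, 22.2, 16.6 and 18.3 CPM in Saline stood against 16.7, 25.3 and 23.8 CPM in CNO (0.20, SE 0.15, adjusted p = 0.851). Without I–II Saline 3 these fold changes were -0.27 for Tac1, -0.30 for Tacr1 and 0.17 for Tacr3. In that edgeR fit the unadjusted p was 0.00276 for Tac1 (adjusted p = 0.451) and 0.00655 for Tac3. Leaving out each superficial library in turn, Tac1 ran from -0.27 (without Saline 3) to -0.08 (without Saline 2), Tacr1 from -0.50 (without CNO 2) to -0.27 (without Saline 2) and Tacr3 from 0.08 (without CNO 2) to 0.36 (without CNO 1), and none was called (edgeR adjusted p from 0.451 to 0.984). With every superficial library kept, 1 of the 4 genes, Tac3, had an unadjusted p under 0.05, beside 7.05% of all genes. DESeq2, limma-voom and edgeR's exact test also called 0 of 4 after adjustment.

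All 4 genes overlapped between the treatments in laminae III–VI. Tac1 changed by -0.07 (SE 0.15, edgeR adjusted p = 0.925), Tacr1 by -0.01 (SE 0.16, adjusted p = 0.994) and Tacr3 by -0.09 (SE 0.16, adjusted p = 0.903) on the log2 scale. Tac3 had 2.39, 1.54 and 2.80 CPM in Saline and 1.57, 2.34 and 1.02 CPM in CNO (-0.49, SE 0.38, adjusted p = 0.732), and at 7 to 20 counts per library a change of its superficial size was not detectable. At an unadjusted p under 0.05, 0 of 4 were counted, beside 9.24% of all genes. After adjustment limma-voom and edgeR's exact test also called 0 of 4, and DESeq2 gave no adjusted p for them.

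**Figure D4:**
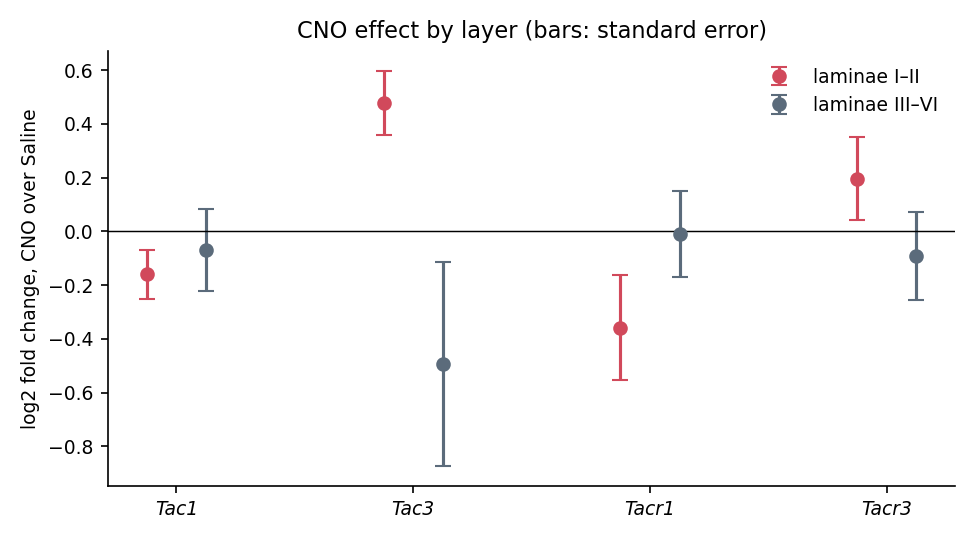
Log2 fold change of CNO over Saline for the 4 tested genes in laminae I–II (red) and laminae III–VI (grey), with standard errors of the edgeR fit (3 against 3 libraries). Tac3 in laminae I–II (0.48) lay farthest from 0 in units of its standard error, and no value passed the adjusted threshold.

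Whether the CNO effect differed between the layers was tested directly as the interaction. For Tac3 the superficial fold change exceeded the deep one by 0.98 on the log2 scale (SE 0.41, unadjusted p = 0.0246, edgeR adjusted p = 0.889). Tac1 (-0.08, SE 0.20, adjusted p = 0.990), Tacr1 (-0.34, SE 0.24, adjusted p = 0.946) and Tacr3 (0.29, SE 0.23, adjusted p = 0.955) were not called either, and 0.0146% of 13745 genes were (5.49% at an unadjusted p under 0.05). With replicate number as a block within treatment, 59 genes in place of 2 were called, and Tac3 had adjusted p = 0.337.

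The within-library ratio of Tac1 to Tac3 was also set against treatment, a comparison chosen after its values were seen. In laminae I–II it was 1.25 ± 0.0533 in CNO and 1.89 ± 0.137 in Saline (n = 3 each), with no overlap, a difference of -0.64 on the log2 scale, or -0.59 without I–II Saline 3. The exact permutation test gave p = 0.1, the smallest that 3 against 3 libraries allow. In laminae III–VI the groups overlapped (3.71 ± 0.307 in CNO, 3.30 ± 0.703 in Saline, exact permutation p = 0.4). Both ligand-to-receptor ratios overlapped between CNO and Saline in each layer.

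Stretches of 30 bases were taken from the RefSeq promoters (GRCr8, 250 bases before the start searched) around the half-site of the cyclic AMP response element, the binding motif of CREB, a factor that many neuronal genes use to respond to activity. The half-site was searched as TGACG or CGTCA on either strand and is printed in capitals. It was found in 3 of the 4 genes with an entry, Tac1, Tacr1 and Tacr3, and not in Tacr2, while 18.2% of 33469 promoters held it. The Tac1 motif begins 206 bases before the start (plus strand), the Tacr1 motif 69 bases and the shown Tacr3 motif 111 bases, with another Tacr3 copy at 130 bases:
Tac1, chr4:36645365-36645394: tccctaaaattgCGTCAtttcgaacccaat
Tacr1, chr4:116478536-116478565: gccccttcccagTGACGtctctgcagcggg
Tacr3, chr2:225940374-225940403: cgctacccgcgaCGTCAcggaagctgggga
The full palindrome TGACGTCA was in none of these promoters and in 1.59% of all. The TATA hexamer, searched as TATAAA or TTTATA, was found for Tacr1 and Tacr3, and in 12.9% of all promoters. These matches describe the letters only, and the Tac3 promoter was not searched.

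The 24 other genes of the tachykinin pathway that were in the tables (peptide processing, degradation and recycling, Gq coupling, desensitization, and Tac4) were compared between the layers in the same fit. Of the 23 tested, 16 were higher in laminae I–II, 2 lower and 5 not called, where 29.1% of all genes were higher and 29.3% lower, with a median log2 difference of 0.32 against 0.02 over all genes. With library totals as scaling the counts were 19 and 1. Among the processing enzymes, 4 of 4 were higher. Pam, which amidates the ends of substance P and the other tachykinins, differed by 1.01 (SE 0.05, edgeR adjusted p = 2.72e-14), the convertase Pcsk1 by 0.76 (SE 0.06), the carboxypeptidase Cpe by 0.23 (SE 0.04) and the convertase Pcsk2 by 0.14 (SE 0.05, adjusted p = 0.0279).

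Among the genes that end or recycle the signal, Mme (neprilysin, which cleaves substance P) was 2.70-fold higher in laminae I–II (log2 1.43, SE 0.08, adjusted p = 7.53e-13). Dpp4, a dipeptidyl peptidase, was higher by 0.97 (SE 0.25) and Ece1, an endosomal protease that aids recycling of the substance P receptor, by 0.55 (SE 0.07). Ace, another peptidase able to cleave substance P, was lower by a log2 difference of -0.86 (SE 0.07, adjusted p = 1.97e-10). The peptidases therefore did not share a direction.

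In the Gq cascade, 5 of 9 genes were higher in laminae I–II: the Gq subunits Gnaq (0.46, SE 0.04) and Gna11 (0.36, SE 0.07), the phospholipase Plcb1 (0.48, SE 0.05) and the IP3 receptors Itpr1 (0.60, SE 0.06) and Itpr3 (0.84, SE 0.13). Plcb2, Plcb3, Plcb4 and Itpr2 were not called. Over all genes tested, 58.4% were called, 29.1% as higher and 29.3% as lower in laminae I–II. Of the genes for receptor kinases and arrestins, Grk2 (0.21), Grk3 (0.50), Grk6 (0.30) and Arrb2 (0.32) were higher, Grk5 was lower (-0.24, SE 0.09, adjusted p = 0.0317) and Arrb1 was not called (0.11, adjusted p = 0.0783). The calls of Pcsk2 and Grk5 hung on single libraries: Pcsk2 was lost without I–II Saline 1 or 3, I–II CNO 1, III–VI Saline 1 or 3 or III–VI CNO 1 or 3, and Grk5 without I–II Saline 2 or 3, I–II CNO 2 or 3, III–VI Saline 1 or III–VI CNO 1, which left 15 to 16 genes higher and 1 to 2 lower.

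**Figure D5:**
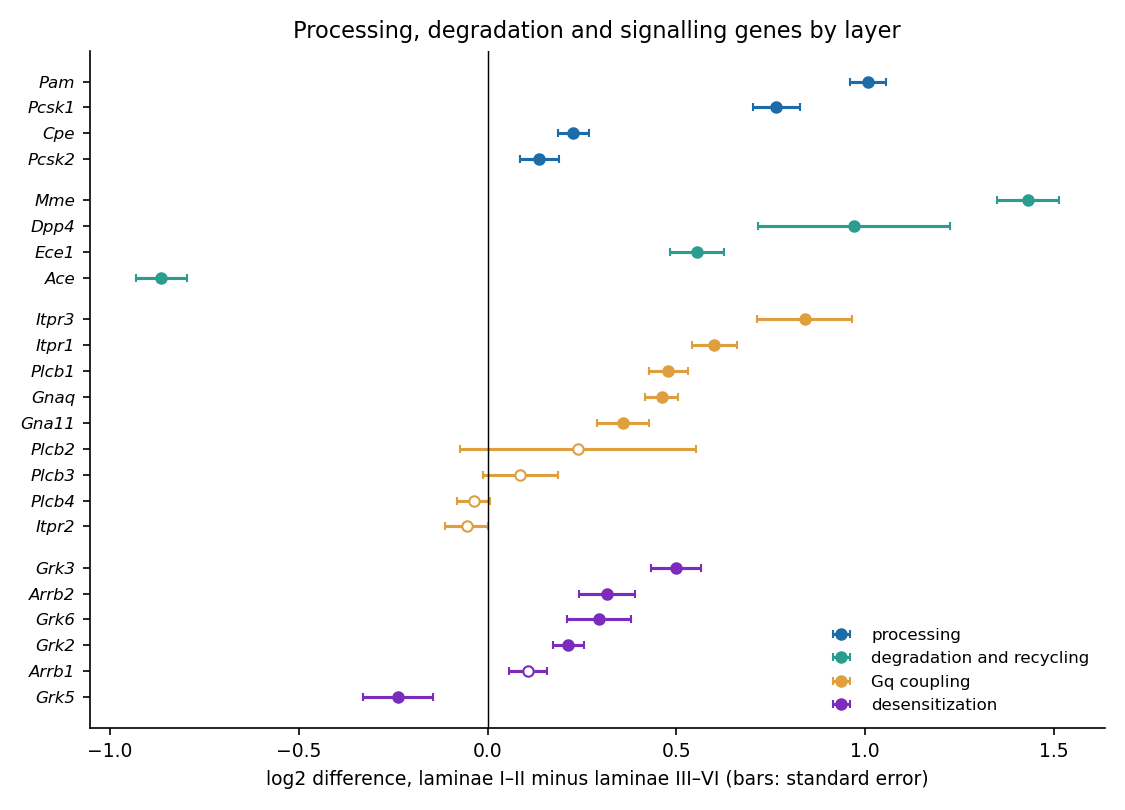
Log2 difference between laminae I–II and III–VI for the 23 tested pathway genes, grouped by role, with the standard error of the edgeR fit. Filled points passed the adjusted threshold and open points did not; Mme (1.43) and Pam (1.01) lay farthest to the superficial side and Ace (-0.86) farthest to the deep side.

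CNO called none of these genes. In laminae I–II 0 of 23 passed the edgeR threshold and 3, Pam, Itpr1 and Mme, had an unadjusted p under 0.05, beside 0.142% and 7.05% of all genes. Their log2 fold changes were 0.19 (SE 0.06, adjusted p = 0.471), 0.18 (SE 0.07, adjusted p = 0.585) and 0.26 (SE 0.11, adjusted p = 0.606). Without I–II Saline 3 they were 0.18, 0.17 and 0.17, with edgeR adjusted p from 0.713 to 0.886, and Mme was no longer among those with an unadjusted p under 0.05. The next smallest p-values by role were those of Cpe (0.07), Ece1 (0.16), Plcb2 (-0.81) and, among the desensitization genes, Grk2 (0.09) and Arrb2 (0.13), with adjusted p-values from 0.744 to 0.867. Of the 22 genes tested in laminae III–VI, 0 passed, and only Gnaq (0.15, SE 0.07, adjusted p = 0.505) had an unadjusted p under 0.05, beside 0.137% and 9.24% of all genes. Pam (-0.13), Pcsk2 (0.13), Ece1 (0.14), Mme (0.12), Itpr3 (-0.28), Grk6 (0.21) and Arrb1 (-0.08) came next there. DESeq2, limma-voom and edgeR's exact test also called none in either layer, where DESeq2 left 14 of 22 without an adjusted p in laminae III–VI.

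Pam was the pathway gene with the smallest p for a different CNO effect between the layers. Its counts were 3284, 3264 and 3373 in I–II Saline and 4152, 4324 and 4831 in I–II CNO. Its levels, 588, 559 and 556 CPM against 604, 664 and 692 CPM, did not overlap, as for 11.8% of all genes (6.72% with CNO higher). The deep groups overlapped, with 342, 303 and 303 CPM in Saline and 276, 311 and 285 CPM in CNO. The interaction was 0.33 (SE 0.09, edgeR adjusted p = 0.593). Of the 23 pathway genes, 0 were called and 1 had an unadjusted p under 0.05, beside 0.0146% and 5.49% of all genes. DESeq2 and limma-voom called 0. With replicate number as a block Pam passed the edgeR threshold (0.32, adjusted p = 0.0149) as the only pathway gene. Without I–II Saline 3 the interaction was 0.31 (adjusted p = 1.00).

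Other excitatory neuropeptides of the dorsal horn were read beside the tachykinins. All 5 were higher in laminae I–II, as were 29.1% of all genes, by 0.56 for Cck, 2.91 for Nts, 3.18 for Grp, 3.75 for Nmu and 5.57 for Npff on the log2 scale. Grp, Nmu and Npff are also on the list of superficial-lamina markers, so that their direction is not independent of how they were chosen. After CNO, 0 of 5 passed in laminae I–II (0 at an unadjusted p under 0.05, and 0 by DESeq2, limma-voom or the exact test), with the smallest p for Npff (-0.30, adjusted p = 0.821) and Nts (-0.11, adjusted p = 0.868), which were at -0.41 and -0.18 without I–II Saline 3. In laminae III–VI, Nts, the neurotensin gene, fell. Its levels were 27.8, 25.4 and 18.7 CPM in Saline and 15.1, 10.5 and 15.5 CPM in CNO, with no overlap, as for 14.5% of all genes. The log2 fold change was -0.80 (SE 0.16, edgeR adjusted p = 0.0463). Nts was thus called, 1 of 3 tested, beside 0.137% of all genes called in this layer. That call was lost when any library but III–VI Saline 3 was left out, with adjusted p from 0.0962 to 0.425. Neither limma-voom (adjusted p = 0.0895), the fit of all 12 libraries nor limma on quantile-normalized counts made it, and DESeq2 gave no adjusted p. Of 16 alternatives, 7 kept the call and 9 did not. Across the same libraries, the summed level of the 6 deep-lamina markers was 5667 to 6638 CPM in III–VI Saline and 7413 to 8456 CPM in III–VI CNO, with a median log2 fold change of 0.17 and 1 of 6 called, the neurofilament gene Nefh (0.50, adjusted p = 0.0109). The 6 testable superficial-lamina markers had a median of -0.24 with 0 called. Of the 5 testable primary sensory neuron genes, with a median of 0.07, edgeR called 1 higher, the peripherin gene Prph (0.81, adjusted p = 0.0294), where limma-voom called 0 and DESeq2 gave no adjusted p. P2rx3, of the same list, was at 2.55 ± 1.66 CPM in III–VI Saline and 1.85 ± 0.688 CPM in III–VI CNO. The part of these genes in the fall of Nts was not tested. Cck was at -0.19 (SE 0.19, adjusted p = 0.802).

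Genes that mark spinal projection neurons, many of which carry Tacr1 in mouse, were read beside Tacr1. Gpr83, a receptor of one such population in mouse, fell after CNO in laminae I–II: its levels were 32.1, 28.2 and 27.5 CPM in Saline and 19.2, 15.04 and 18.2 CPM in CNO, with no overlap, as for 11.8% of all genes (1.68-fold lower, log2 -0.75, SE 0.12, edgeR adjusted p = 0.00972, beside 0.142% of all genes called). Without I–II CNO 2 the adjusted p was 0.146, and without I–II Saline 3 it was 0.0109 (log2 -0.79). In the same libraries edgeR called 4 of 5 testable Schwann-cell genes lower after CNO, while DESeq2 called 1. The part of the Schwann-cell genes in the values of Gpr83 and Lypd1 was not tested. Lypd1 had 30.6, 31.8 and 29.5 CPM in Saline and 39.0, 45.3 and 45.6 CPM in CNO, also without overlap, and did not pass edgeR's quasi-likelihood test (0.49, SE 0.10, adjusted p = 0.0746). DESeq2 and limma-voom did not call it either. Calls as higher came from edgeR's exact test, the test with no low-count filter and the fit of all 12 libraries. The replicate block and the fit without I–II CNO 1 also called it higher. Over 16 alternatives the log2 fold change of Lypd1 ran from 0.45 to 0.56 and its adjusted p from 0.00150 to 0.467, with 0.189 without I–II Saline 3. Tacr1 itself, at -0.36 with overlapping groups, was not called. In laminae III–VI, Gpr83 (-0.01, adjusted p = 0.995) and Lypd1 (-0.01, adjusted p = 0.991) were not called, and the interaction was not called for Gpr83 (-0.74, SE 0.22, adjusted p = 0.618) or Lypd1 (0.50, SE 0.14, adjusted p = 0.593). Between the layers both were higher in laminae I–II, Gpr83 by 1.67 and Lypd1 by 0.24 (overlapping layers, and not called when only the Saline groups were compared), while Phox2a had too few counts to be tested.

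Finally, the genes whose levels ran most alike across the 12 libraries were listed as a description. Likeness was the root mean square distance of log2(CPM + 0.5) after each gene was centred on its own mean, over 13744 other genes. For Tac1 the nearest were Necab1, a calcium-binding protein gene (0.16), Stx1a, a syntaxin of the synaptic release machinery (0.18), and Baiap3 (0.19), against a median distance of 1.37. For Tac3 they were the phosphodiesterase gene Pde11a (0.34), the receptor gene Pth2r (0.37) and the protease gene Prss12 (0.48), against 2.22. For Tacr1, whose level was flat, they were Cyp7b1 (0.09), Polr2g (0.11) and Polr2k (0.11), against 0.30. For Tacr3 they were the receptor gene Ret (0.13), Fbxl16 (0.13) and the ephrin receptor gene Ephb6 (0.13), against 0.61. The layer difference, which the libraries of a layer share, enters these distances.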

How the data were processed

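Total RNA (50 ng) from laser-microdissected laminae was rRNA-depleted and made into stranded libraries, read as paired ends of 36 bases on a NextSeq500. Per the methods, 30 specimens from 3 rats entered each group. The authors mapped the reads to rn6 and deposited total counts per gene from CLC Genomics Workbench, together with quantile-normalized counts (a signal scaled within a layer), group means and their own test columns (p-values, false discovery rates and fold changes), of which the last were not used. The gene annotation (Ensembl, Rnor_6.0) gave positions. Every count column was matched to 1 library, and 0 columns had no sample.

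The deposited counts were tested with edgeR 4.0.16 (R 4.3.3): TMM scaling, filterByExpr (minimum count 10, minimum total 15), quasi-likelihood F-test, Benjamini-Hochberg adjustment over all genes tested. CNO was compared with Saline in the 6 libraries of a layer, and layers and the interaction in a fit of 12 libraries. Standard errors were the log2 difference over the root of F. CPM used the factors of the 12-library fit. Ratios added 0.5 to counts. Alternatives were RLE factors, library totals, DESeq2 1.42.0, limma-voom (limma 3.58.1), edgeR's exact test, other filters, limma on log2 of the deposited quantile-normalized signal plus 1, a replicate block and leaving out each library. Scripts were tested on simulated data.

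Replicates of a group differed by 2.50 to 4.35 times the chi-square per degree of freedom expected of sampling. Same-numbered libraries of both layers deviated together in all 6 pairs (correlations 0.13 to 0.20, other numbers -0.13 to -0.03), so numbers pair the layers; the labels do not name the rats, and p-values measure the spread between these libraries. Same-numbered libraries of the 2 treatments within a layer also deviated together (correlations 0.025 to 0.140, other numbers -0.099 to 0.017). The reason for this was not tested, and the main tests used no block. Named genes were all 5 tachykinin genes and, of each pathway list, those past the threshold and the 2 with the smallest p. Genes and lists were chosen with earlier results of these data known. The desensitization list held 8 entries, of which 2 (Adrbk1, Adrbk2) are older names of Grk2 and Grk3. No gene lengths were used, so levels are not compared between genes. Promoter sequences came from RefSeq (GRCr8), where 4 of the 5 genes matched. Part of the primary sensory neuron list is not reported here.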

Additional observations from a re-analysis of the deposited data

How the results depend on the processing

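The layer calls of Tac1, Tac3 and Tacr3 stood in all 21 alternatives, with 5693 to 8668 genes called in all. Tacr1 stayed uncalled between the layers, turning sign with library totals (0.033) and when only the Saline groups of the fit were compared (0.027). For CNO in laminae I–II, 19 genes became 9 with DESeq2, 131 with no low-count filter, 41 with the exact test and 3 to 29 when 1 library was left out (3 without I–II CNO 2). In laminae III–VI, 18 became 112 with no filter, 46 with the exact test, 0 when all 12 libraries were fitted together (1191 before adjustment), 1 with limma on quantile-normalized counts and 0 to 93 leaving out 1 library (0 without III–VI CNO 3, 812 unadjusted). The interaction count of 2 became 5 with DESeq2, 86 with no filter and 0 to 5 leaving out 1 library. Tac3 after CNO in laminae I–II passed with no filter (0.49), missed narrowly with the exact test (adjusted p = 0.0534) and ran from 0.32 to 0.60 leaving out 1 library (adjusted p 0.0718 to 0.960). The uncalled deep CNO values turned sign for Tac1 (-0.24 to 0.062 leaving out 1 library) and for Tacr1 (0.0018 with limma-voom, 8.9e-05 with limma on quantile-normalized counts, -0.087 to 0.070 leaving out 1 library), and so did the Tac1 interaction (-0.23 to 0.093). In Saline libraries only, the layer differences of the log2 ratios were -1.41, 2.76 and 3.19, each with the smallest exact permutation p that 3 against 3 allow, 0.1. The cause of these shifts was not tested.

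The replicate block across layers changed no call of the tachykinin genes. Across treatments, same-numbered libraries of a layer also deviated together (correlations 0.025 to 0.140, other numbers -0.099 to 0.017). There the block raised the superficial count to 78 and the deep count to 194. In laminae I–II it gave Tac3 0.48 (edgeR adjusted p = 0.0255) and Lypd1 an edgeR adjusted p of 0.0144, both past the threshold. The interaction count was 59 with the block. Over same-numbered pairs, the 3 ratios gave an exact sign-flip permutation p of 0.0312, the smallest that 6 pairs allow.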
